A study of Rattus norvegicus with 44 samples.

Results

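The enzymes described are the cytochrome P450s of families 1 to 4, the glutathione S-transferases, the UDP-glucuronosyltransferases and the sulfotransferases, measured in rat hepatoma cells after exposure to nickel, chromium or cadmium. Members were taken by the symbols of their annotation and not by their values, although the families were picked with earlier results of these data known. A probe set of the Affymetrix rat array is a member if it names 1 gene whose symbol belongs to these families. There are 94 such probe sets among 31042 that are not controls of the array, and they name 87 genes. They comprise 46 P450 probe sets (3 of family 1, 27 of family 2, 4 of family 3 and 12 of family 4), 24 glutathione S-transferase probe sets, 9 for UDP-glucuronosyltransferases of the UGT2 family and 15 for sulfotransferases. Each of 7 genes has 2 probe sets, which are told apart by their IDs where values of such a gene are given. A further 8 probe sets name several genes of these families and are not members. No probe set names a single UGT1 gene.

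Cytochrome P450s are heme enzymes of the endoplasmic reticulum that oxidise drugs, pollutants, steroids and fatty acids. Glutathione S-transferases, UDP-glucuronosyltransferases and sulfotransferases then attach glutathione, glucuronic acid or sulfate, which makes products easier to excrete. The liver is the main site of both steps, and many of the genes are controlled by liver-enriched nuclear receptors and by sensors of foreign compounds or electrophiles.

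The cells were H4-II-E-C3, an established rat hepatoma line grown in serum-containing medium and exposed near confluence for 24 h in medium without serum. Nickel was given as NiCl2 at 40, 140 and 400 µM, chromium as Na2Cr2O7 at 0.275, 1 and 10 µM, and cadmium as CdCl2 with concentrations of 0.2, then 0.55, then 1.2 µM, and unexposed control cells were grown alongside. The 44 arrays are 4 biological replicates of the 9 exposures and 8 control arrays, 2 in each replicate. Per the methods, viability assays set the 3 concentrations of each metal at no observed cell death and at the same pair of higher death levels, so the high concentrations were matched on cell death and not on amount. The titles and the methods call the replicates biological without saying how their cultures were kept apart. Whether the pair of control arrays came from separate cultures is not stated, so p-values measure the spread between these arrays. In RNA from whole cultures, fewer cells expressing a gene and less RNA per cell cannot be told apart.

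Conditions were not taken from the deposited label of each array but from the order of the sample titles, with the 4 titles of repeated arrays moved to the end. Under this order 22 of the 44 arrays have another condition than their label gives, namely 0, 2, 10 and 10 of the 11 arrays in labelled replicates 1 to 4. The order was adopted because condition means over it differ from those in the supplement by at most 7.5e-06 on the log2 scale over 992 probe sets, while means over the labels differ by up to 4.32. That material was made from the same arrays, so it is no independent check. With the labels as deposited, 0 of the 94 members passed the test at the high concentration of each metal, and the share of all probe sets under those labels is not given here. The calls below therefore depend on the title order.

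Arrays of 1 condition had R2 values of 0.954 to 0.995. Of 14 probe sets for hepatocyte markers 10 were at or above percentile 70 of all probe sets (albumin at 100 and Ttr at 98.8, for example), and 4 were low, namely Apoa1 at 43.1, Apoh at 32.2 and Fgb at 10.3 and 5.6, although another Fgb probe set was at 95.1. There was no probe set naming Tf alone, and no marker of macrophages, stellate, bile duct or endothelial cells was above percentile 57.0. Of the members, 46 are among the 51.6% of probe sets with the highest mean over all arrays, called bright here, and 48 are below. No member was removed by a filter.

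A member is called if its difference from the controls passed limma with a Benjamini-Hochberg adjusted p of at most 0.05 over all 31042 probe sets. At the high concentration more members fell than rose in each metal. In nickel, 22 of 94 fell and 3 rose, that is 23.4% and 3.19%, against 9.28% lower and 12.6% higher among all probe sets. Chromium lowered 27 (28.7%) and raised 5 (5.32%), against 10% and 11.9% of all probe sets. Cadmium lowered 19 (20.2%) and raised 8 (8.51%), against 9.31% and 12.7%. The median log2 change of the members was -0.17 in nickel, -0.07 in chromium and -0.05 in cadmium, where the medians of all probe sets were -0.02, -0.00 and -0.04. The 3 comparisons share the control arrays and are not independent of each other. Without the replicate number as a term, 14 members were called in nickel and 16 in cadmium, and the shares of all probe sets in that fit are not given here.

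Calls were more frequent among bright probe sets in general, members or not. Among the 46 bright members, 17 fell and 1 rose in nickel (37% and 2.17%), against 14.6% and 21% of all bright probe sets. In chromium 21 fell and 3 rose (45.7% and 6.52%, against 17.1% and 20.2%), and in cadmium 12 fell and 6 rose (26.1% and 13%, against 12.2% and 21.1%). Of the 48 dim members, 5, 6 and 7 fell (10.4%, 12.5% and 14.6%), against 3.66%, 2.46% and 6.19% of all dim probe sets, and 2 rose in each metal. Called in no metal at the high concentration were 50 of the 94 members, 36 of them dim. The remaining 44 are distributed over all 4 enzyme groups. P450s, which are 48.9% of the members, made up 11 of the 22 falls in nickel (50%), 17 of 27 in chromium (63%) and 10 of 19 in cadmium (52.6%), and their share of the falls was not tested. Of the rises, 0, 1 and 3 were P450 probe sets.

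**Figure D1:**
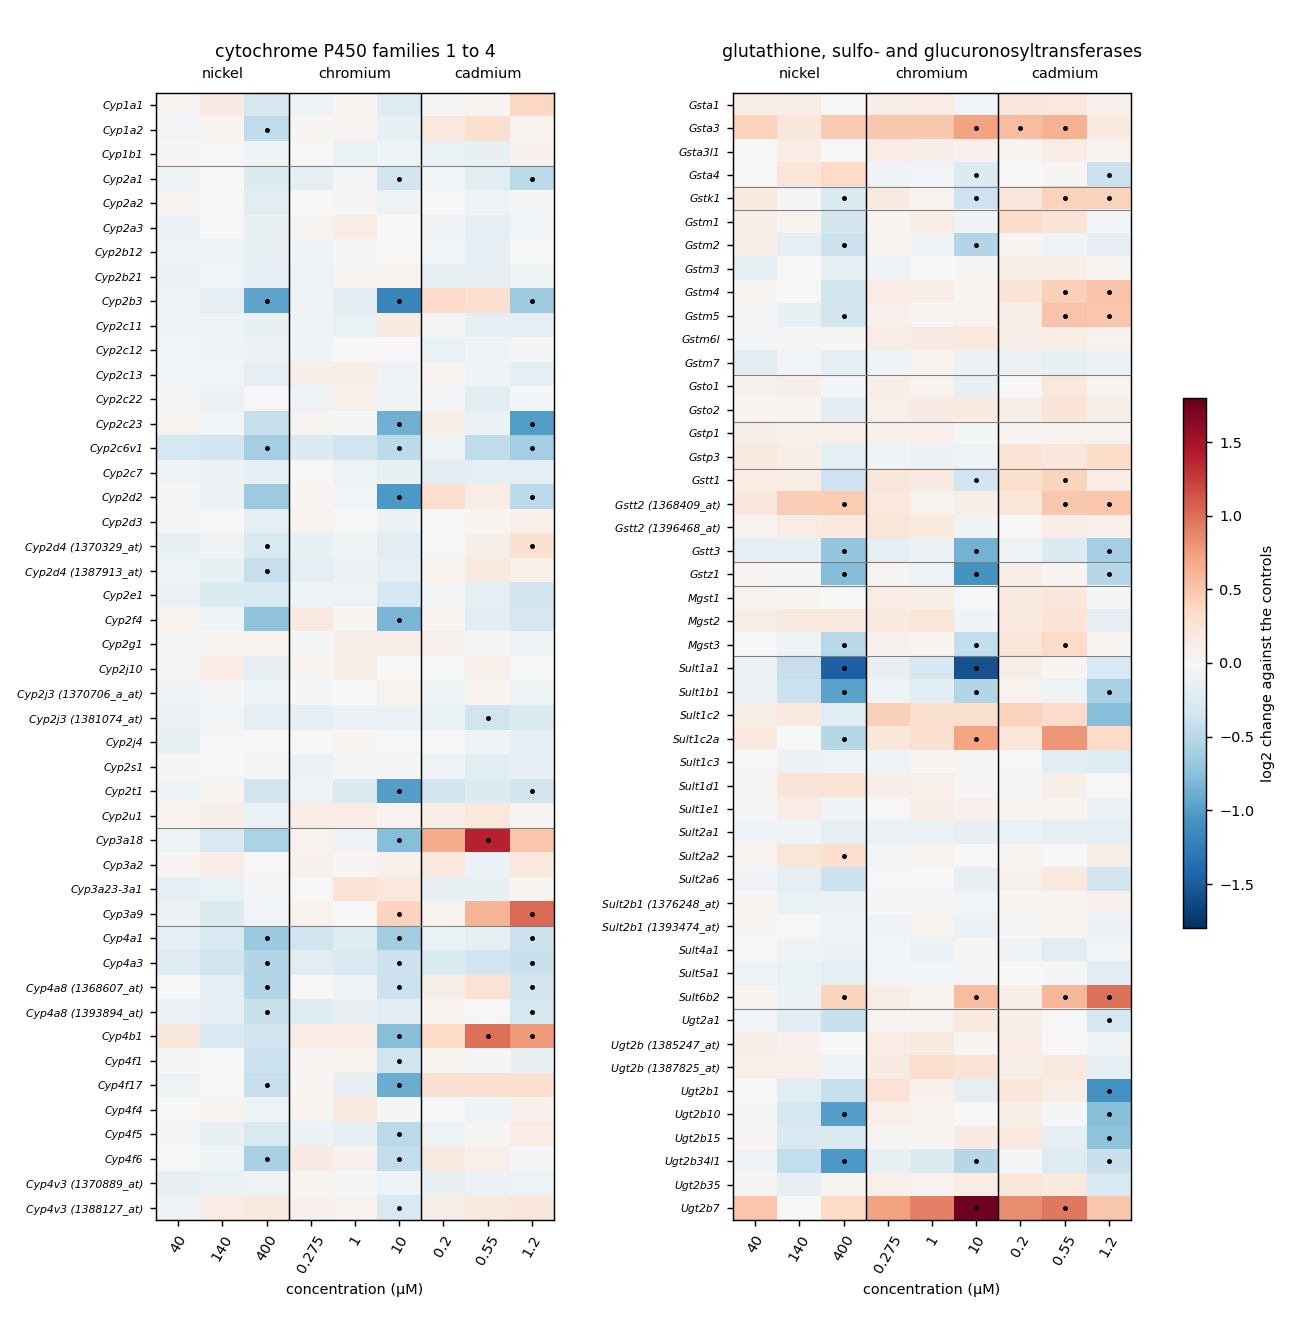
Log2 change against the controls of each of the 94 member probe sets (rows, grouped by family) at 3 concentrations in µM of nickel, chromium and cadmium (columns); red is higher, blue is lower, and a dot marks an adjusted p of at most 0.05. Dots are almost all in the high-concentration columns, with the exception of 12 in the middle column of cadmium and 1 in its low column.

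The lower concentrations gave no member calls in nickel and chromium, and calls that were mostly rises in cadmium. At the low and middle concentrations of nickel 0 of 94 members were called by limma, against 0% and 1.21% of all probe sets, and 7 and 6 had an unadjusted p under 0.05, against 3.6% and 13.1% of all probe sets. In chromium 0 were called at both, against 0.00322% and 0.0226%, and 11 and 11 had an unadjusted p under 0.05, against 7.55% and 6.11%. At the low concentration of cadmium 1 member rose, the alpha-class transferase Gsta3 (log2 change 0.56), against 0.0612% of all probe sets, and 23 members had an unadjusted p under 0.05, against 7.75%. The call of Gsta3 was lost without replicate 2, 3 or 4. Cadmium at 0.55 µM differed in direction from the high concentrations: 11 members rose and 1 fell (11.7% and 1.06%), against 3.35% and 1.62% of all probe sets. Of those 11 rises, 7 were among the 24 glutathione S-transferases. The count at 0.55 µM was 1 when replicate 3 was left out. At 0.55 µM the arrays of replicates 2 and 4 correlated better with another replicate number than with their own. Their mean correlations were 0.158 against 0.003 and 0.427 against 0.324, and that of replicate 2 is a repeated array.

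A stricter rule, adjusted p of at most 0.001 for any effect of concentration and at least 1.8-fold, takes only its thresholds from the methods. The paper applied them to an analysis of variance on probe sets with a present call, and here they were applied to limma on all probe sets. The counts are therefore not those of the paper. Under this rule 0 members passed in nickel (1.16% of all probe sets), 9 in chromium (1.47%) and 4 in cadmium (0.983%). The 9 in chromium were Cyp2b3, Cyp2c23, Cyp2d2, Cyp2t1, Cyp4f17, Gstt3, Gstz1, Sult1a1 and, as the only rise, Ugt2b7. The 4 in cadmium were Cyp2c23, which fell, and Cyp3a9, Cyp4b1 and Sult6b2, which rose. In chromium 4 members passed without replicate 3, and in cadmium 1 or 2 whichever replicate was left out. In nickel 3 passed with the control arrays as separate samples and 4 in 1 fit over all arrays.

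Sult1a1, the phenol sulfotransferase of liver, had the largest falls of any member in nickel and in chromium. Its control arrays had log2 intensities of 8.12 and 8.02 in replicate 1, 8.09 and 8.15 in replicate 2, 8.51 and 8.54 in replicate 3, and 8.71 and 8.13 in replicate 4. At 400 µM nickel the 4 replicates were at 5.60, 6.09, 7.62 and 7.96, and at 10 µM chromium at 6.38, 6.85, 6.70 and 6.94. All 8 of these arrays were below every control, by a wide margin except in nickel replicates 3 and 4. The log2 change was -1.47 (SE 0.26, adjusted p = 0.00069) in nickel and -1.57 (SE 0.15, adjusted p = 2.1e-06) in chromium. At 1.2 µM cadmium the values were 7.74, 7.71, 8.20 and 8.35, which overlap the controls, and the change of -0.28 (adjusted p = 0.10) did not pass. The difference between chromium and cadmium was called, at -1.29.

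Several members had a lower call in each metal, and their values are given side by side. Of the nickel calls, those of Gstz1 and Cyp2b3 were lost without replicate 1 or 2, and that of Gstt3 without replicate 2. Leaving out a single replicate also ended the chromium calls of Cyp2c6v1, Cyp4a3 and Cyp4a8 (1368607_at) and the cadmium calls of Cyp4a1, Cyp4a3 and Cyp4a8 (1368607_at). Gstz1, the zeta-class transferase that also acts as maleylacetoacetate isomerase in tyrosine breakdown, had control values of 9.46, 9.30, 9.36, 9.49, 8.93, 9.01, 9.09 and 9.15. Chromium arrays were at 8.28, 8.35, 7.88 and 8.07 and cadmium arrays at 8.74, 8.71, 8.60 and 8.82, all below every control. In nickel the arrays were at 7.77, 8.07, 8.80 and 9.13, so the last one lay within the control range. The log2 changes were -0.78 (SE 0.22) in nickel, -1.08 (SE 0.084) in chromium and -0.51 (SE 0.074) in cadmium, with adjusted p of 0.019, 3.4e-07 and 0.00015. In chromium the 4 replicates, each set against its own controls, gave -1.10, -1.08, -1.08 and -1.05.

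Cyp2b3, a member of the P450 subfamily known for its induction by phenobarbital, had control values from 7.41 to 8.18. Its arrays were at 5.58, 5.89, 7.63 and 8.09 in nickel, at 5.79, 6.19, 6.90 and 7.42 in chromium, and at 6.59, 6.66, 7.50 and 7.68 in cadmium. Within each replicate the chromium and cadmium arrays were below both controls. The changes were -0.95 (SE 0.24, adjusted p = 0.0089) in nickel, -1.18 (SE 0.12, adjusted p = 4.6e-06) in chromium and -0.64 (SE 0.09) in cadmium.

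Sult1b1, a sulfotransferase of phenols and thyroid hormones, had control values from 11.19 to 11.68. It was at 9.77, 10.37, 10.82 and 11.04 in nickel, at 11.16, 11.12, 10.64 and 10.80 in chromium, and at 10.88, 11.05, 10.70 and 10.90 in cadmium, so every exposed array was below every control. Sult1b1 fell by 0.96, 0.53 and 0.58 on the log2 scale in nickel, chromium and cadmium. Gstt3, a theta-class transferase, fell by 0.69, 0.85 and 0.61, and Ugt2b34l1, a UGT2 gene, by 1.04, 0.52 and 0.40.

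The fatty acid omega-hydroxylases Cyp4a1, Cyp4a3 and Cyp4a8 and the family 2 gene Cyp2c6v1 also had lower calls in each metal. Cyp4a1 changed by -0.67, -0.63 and -0.39 in nickel, chromium and cadmium, Cyp4a3 by -0.53, -0.39 and -0.40, and Cyp2c6v1 by -0.61, -0.47 and -0.61. One Cyp4a8 probe set (1368607_at) changed by -0.53, -0.38 and -0.35, and the other (1393894_at) by -0.40 and -0.32 in nickel and cadmium, with -0.21 (adjusted p = 0.13) in chromium. The controls of Cyp2c6v1 were at 5.60, 5.68, 5.11 and 5.20 in replicates 1 and 2 but between 4.64 and 4.70 in replicates 3 and 4, and all exposed high-concentration arrays were between 4.23 and 4.63. In chromium, the calls of Cyp2c6v1, Cyp4a3 and Cyp4a8 were lost when replicate 1 was left out.

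Promoters of 74 of the 87 member genes were found in RefSeq (assembly GRCr8), as 300 bases from 250 before to 50 after the start. They were searched on both strands for 5 motifs of factors known to control these families or to respond to metals. The HNF4 motif (CAAAGTCCA or CAAAGGTCA) was in 2 member promoters (2.7%, against 0.813% of 33469 promoters) and the C/EBP motif (TTGCNNAA) in 23 (31.1%, against 10.6%). The antioxidant response motif (TGACNNNGC) was in 8 (10.8%, against 12.1%), the xenobiotic response core (GCGTG, which can lie inside the former) in 14 (18.9%, against 29.7%) and the metal response motif (TGCACNC or TGCGCNC) in 17 (23%, against 24.2%). A match is a string of letters and not a bound site. The 250 bases before the start of 3 genes with lower calls in each metal, 1 P450, 1 transferase and 1 sulfotransferase, are shown from 5′ to 3′ with matches in capitals.
Cyp2b3 (GRCr8, chr1:90780242-90780491, plus strand): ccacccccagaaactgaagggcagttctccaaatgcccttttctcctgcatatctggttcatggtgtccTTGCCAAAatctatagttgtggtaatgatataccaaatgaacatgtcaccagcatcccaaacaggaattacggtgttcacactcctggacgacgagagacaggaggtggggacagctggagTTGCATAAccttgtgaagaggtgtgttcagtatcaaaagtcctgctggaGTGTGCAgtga
Gstz1 (GRCr8, chr6:112525356-112525605, plus strand): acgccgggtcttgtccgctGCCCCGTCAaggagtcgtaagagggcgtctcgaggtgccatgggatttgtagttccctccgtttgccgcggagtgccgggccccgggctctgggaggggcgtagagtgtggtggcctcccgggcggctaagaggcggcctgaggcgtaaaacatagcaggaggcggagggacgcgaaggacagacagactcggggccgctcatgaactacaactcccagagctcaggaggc
Sult1b1 (GRCr8, chr14:20771667-20771916, plus strand): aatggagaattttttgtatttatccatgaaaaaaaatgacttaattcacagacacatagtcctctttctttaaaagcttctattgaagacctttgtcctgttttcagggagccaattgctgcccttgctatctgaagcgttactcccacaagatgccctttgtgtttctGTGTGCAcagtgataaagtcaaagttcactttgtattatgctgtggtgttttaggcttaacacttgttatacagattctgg
The capitals in Cyp2b3 are C/EBP matches that begin 181 and 60 bases before the start and a metal response match 11 bases before it. In Gstz1 they mark an antioxidant response match 231 bases before the start, and in Sult1b1 a metal response match 81 bases before it. No motif was common to the 3. Of the genes with lower calls in each metal, 7 had a promoter. The HNF4 motif was in 0 of these 7, and the C/EBP, antioxidant response and xenobiotic response motifs in 1 each. The metal response motif was in 2. Cyp4a3, Cyp4a8 and Gstt3 had no match to any of the 5 motifs.

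Falls in chromium extended further into P450 families 2 and 4. Cyp2d2, of the subfamily that hydroxylates many amine drugs, had control values from 6.69 to 7.55 and was at 5.54, 5.87, 6.16 and 6.41 in chromium, below all controls. Its change was -1.03 (SE 0.092, adjusted p = 1.2e-06). In nickel the same probe set was at 4.77 and 5.23 in replicates 1 and 2 and at 7.52 and 7.97 in replicates 3 and 4, which straddles the controls, and the change of -0.66 (SE 0.34, adjusted p = 0.20) was not called. Cadmium lowered it by 0.47 on the log2 scale, a call that was lost without replicate 3.

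Cyp2c23, an arachidonic acid epoxygenase, fell in chromium and in cadmium. Its control arrays were at 11.78, 11.68, 11.61, 11.58, 11.36, 11.36, 11.48 and 10.87. Chromium arrays were at 11.04, 10.78, 10.18 and 10.44 and cadmium arrays at 10.44, 10.52, 10.35 and 10.57. All but the first chromium array were below the lowest control. The changes were -0.86 (SE 0.099, adjusted p = 1.2e-05) and -1.0 (SE 0.088, adjusted p = 1e-06), and that in nickel was -0.42 (adjusted p = 0.19).

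Other falls in chromium were those of Cyp2t1 (-0.99), of Cyp2f4 (-0.82), which belongs to a subfamily known from the lung, and of Cyp3a18 (-0.76). The Cyp4f subfamily, which hydroxylates leukotrienes and other long-chain acids, fell with Cyp4f17 (-0.90), Cyp4f5 (-0.48), Cyp4f6 (-0.45) and Cyp4f1 (-0.36), while Cyp4f4 had a change of -0.04. In nickel Cyp4f6 fell by 0.59 and Cyp4f17 by 0.42, calls that were lost without replicate 1 or 2, and in cadmium no Cyp4f probe set was called. In family 4 as a whole, 6, 9 and 4 of 12 probe sets fell in nickel, chromium and cadmium, against 9.28%, 10% and 9.31% of all probe sets.

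Cyp4b1, which activates some protoxins in lung and liver, had opposite calls in chromium and cadmium. Control values were 7.69, 7.75, 7.55, 7.48, 6.88, 6.76, 7.07 and 7.06. Chromium arrays were at 6.79, 6.70, 6.2 and 6.38, and cadmium arrays at 9.01, 8.49, 7.80 and 7.79 at 0.55 µM and at 8.11, 8.09, 7.96 and 8.01 at 1.2 µM. Every cadmium array at these concentrations was above every control, and within each replicate every chromium array was below its controls. The changes were -0.76 (SE 0.11, adjusted p = 9.9e-05) in chromium, and 0.99 (SE 0.14) and 0.76 (SE 0.14) at the middle and high concentrations of cadmium. The difference between chromium and cadmium was -1.53 (SE 0.17, adjusted p = 8.5e-09).

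On chromosome 5 of GRCr8 the start of Cyp4b1 lies 40.9 kb from that of Cyp4a3. Cyp4a3 was lower at the high concentration of cadmium (-0.40, adjusted p = 0.022), a call lost when a single replicate was left out. A probe set naming both Cyp4a3 and Cyp4a2 had -0.14 there (adjusted p = 0.43). At the middle concentration, where Cyp4b1 rose by 0.99, Cyp4a3 had -0.34 (adjusted p = 0.094) and was not called. That shared probe set had 0.19 and those of Cyp4a8 had 0.26 and -0.00, none called. The promoter of Cyp4b1 is shown because the gene rose in cadmium near Cyp4a3, which fell at the high concentration.
Cyp4b1 (GRCr8, chr5:134393117-134393366, minus strand): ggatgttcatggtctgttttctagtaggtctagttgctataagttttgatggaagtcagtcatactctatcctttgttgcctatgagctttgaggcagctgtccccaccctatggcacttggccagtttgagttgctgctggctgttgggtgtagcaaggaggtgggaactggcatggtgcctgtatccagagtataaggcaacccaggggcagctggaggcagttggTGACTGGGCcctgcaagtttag
The capitals mark an antioxidant response match that begins 22 bases before the start. No metal response match was found in its 300 bases.

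**Figure D2:**
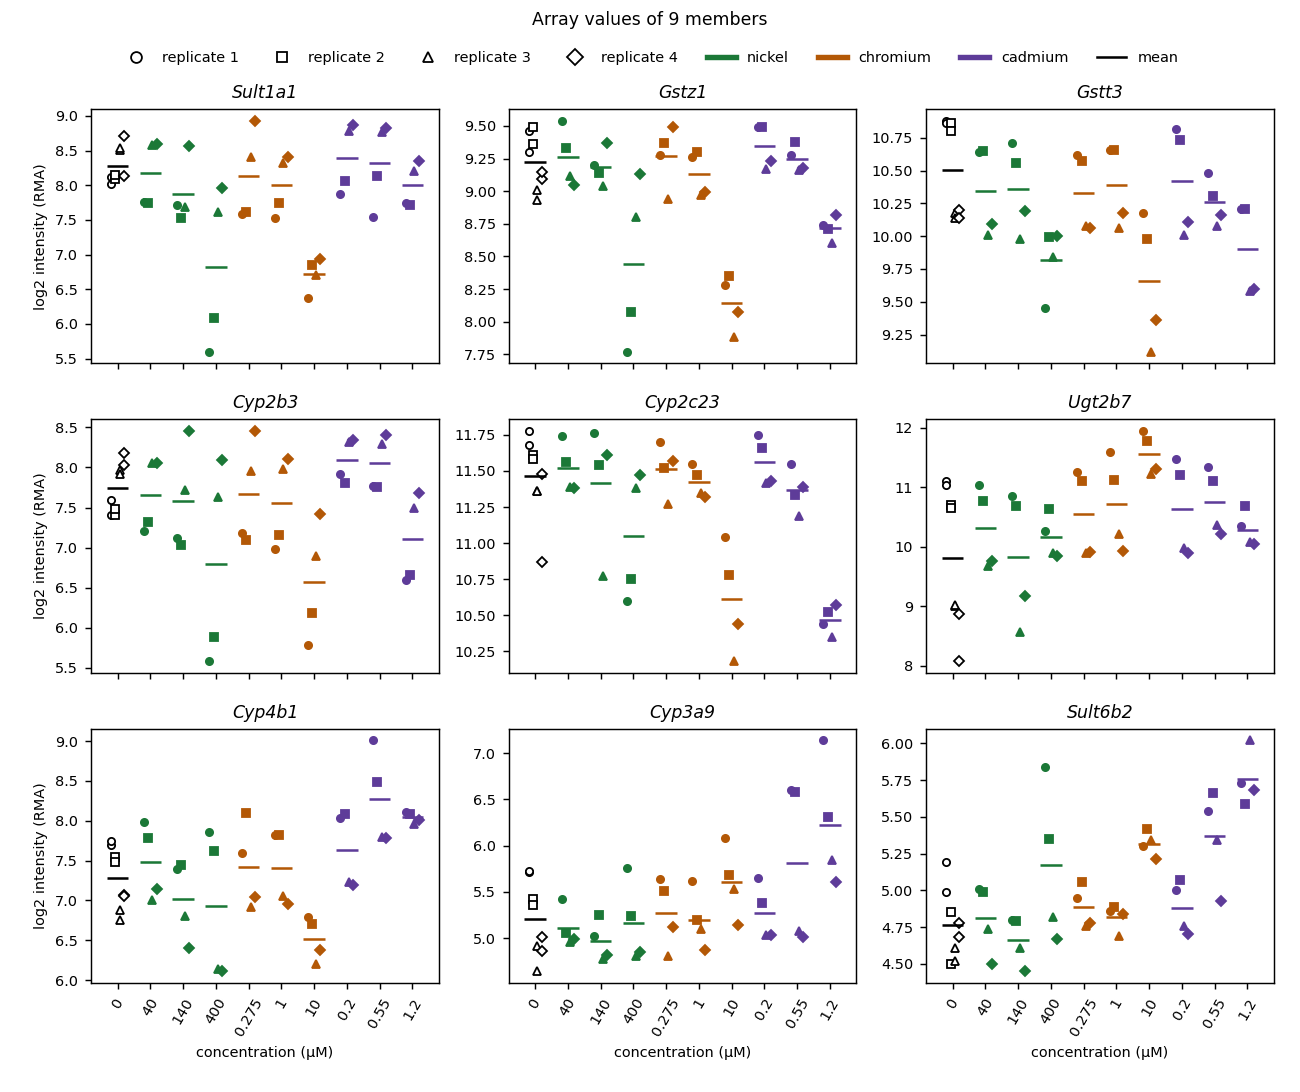
Log2 intensity (RMA) of 9 members on each array (y axis) against concentration in µM (x axis, with 0 for the 8 controls and then nickel, chromium and cadmium); symbols are the 4 replicates, colours the metals and bars the means. At 1.2 µM cadmium all 4 Cyp4b1, Cyp3a9 and Sult6b2 arrays lie above their mean control level, and at 10 µM chromium all 4 Ugt2b7 arrays lie above every control.

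Family 3 and family 1 had few calls. Cyp3a9, of the family that oxidises most drugs and many steroids, rose in cadmium by 1.02 (SE 0.17, adjusted p = 0.00046) and in chromium by 0.40 (SE 0.10, adjusted p = 0.0088), the latter call being lost without replicate 1 or 3. Its cadmium arrays were at 7.14, 6.31, 5.85 and 5.61 where the controls of the same replicates were at 5.72 and 5.73, 5.42 and 5.36, 4.64 and 4.91, and 5.01 and 4.86. Each was above its own controls, although replicate 4 was below the controls of replicate 1. Cyp3a18 rose at 0.55 µM cadmium, where arrays were at 7.16, 6.72, 7.03 and 6.63 and the highest control was at 6.45, with a change of 1.39 (SE 0.27, adjusted p = 0.01). At 1.2 µM its change was 0.50 (adjusted p = 0.21). Cyp3a2 and Cyp3a23-3a1 were not called in any metal.

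Cyp1a1, the main target of the aryl hydrocarbon receptor, had low intensities, with controls from 5.13 to 5.57. At the high concentrations it was at 5.00, 4.78, 5.18 and 4.99 in nickel, at 4.83, 5.24, 5.11 and 5.01 in chromium, and at 5.43, 6.04, 5.84 and 5.29 in cadmium. The changes of -0.29, -0.23 and 0.37 were not called (adjusted p of 0.088, 0.23 and 0.088), while the difference between nickel and cadmium was, at -0.67 (adjusted p = 5.9e-04), and that between chromium and cadmium, at -0.60 (adjusted p = 0.0018). Cyp1a2, controlled by the same receptor, fell in nickel by 0.46 (SE 0.10, adjusted p = 0.0038), with all 4 arrays (5.51, 5.33, 5.63 and 5.58) below their own controls. Its changes in chromium and cadmium were -0.13 and 0.06, neither called. Cyp1b1 changed by -0.07, -0.08 and 0.08, without a call. Cyp2e1, the ethanol-oxidising P450, had changes of -0.27, -0.32 and -0.34 and adjusted p of 0.18, 0.082 and 0.055.

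Glutathione S-transferases had calls in both directions, also within a class. In nickel 6 of 24 probe sets fell and 1 rose, in chromium 7 fell and 1 rose, and in cadmium 3 fell and 4 rose. Among all probe sets 9.28%, 10% and 9.31% fell and 12.6%, 11.9% and 12.7% rose in these metals. Most of the 24 are bright. Among all bright probe sets 14.6%, 17.1% and 12.2% fell and 21%, 20.2% and 21.1% rose, and the cadmium counts are near these shares. Gstp1, the pi-class enzyme long used as a marker of rat liver tumours, had a control mean of 13.97 ± 0.040 (SD, n = 8) and changes of 0.09, -0.02 and 0.06, not called, with 95% intervals of -0.04 to 0.22, -0.15 to 0.11 and -0.06 to 0.18. Mgst1, the microsomal enzyme, had a control mean of 13.06 ± 0.067 (SD, n = 8) and changes of -0.00, 0.00 and -0.02, not called. Gsta1 changed by 0.00, -0.05 and 0.08, and Gstm1 by -0.33 (adjusted p = 0.10), -0.06 and -0.04.

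The alpha class, which handles products of lipid peroxidation, contained rises. Gsta3 rose in chromium by 0.72 (SE 0.13, adjusted p = 0.00046) and at 0.55 µM cadmium by 0.62 (adjusted p = 0.0059), and had 0.47 (adjusted p = 0.08) in nickel and 0.17 at 1.2 µM cadmium. Its chromium arrays were at 10.23, 10.17, 10.16 and 10.06, all above the highest control (10.00), and controls ran from 9.70 to 10.00 in replicates 1 and 2 and from 8.67 to 9.18 in replicates 3 and 4. Gsta4, which acts on 4-hydroxynonenal, fell in chromium by 0.25, a call lost without replicate 1 or 3, and in cadmium by 0.38, and its change in nickel was 0.36 (adjusted p = 0.087). Gsta5 and Gsta2 have no probe set of their own here. A probe set that names both, and so is no member, was above all controls on all 12 high-concentration arrays except 1, with changes of 1.11 (adjusted p = 1.4e-06) in nickel, 0.87 (adjusted p = 9.9e-06) in chromium and 0.57 (adjusted p = 0.0032) in cadmium. Its signal cannot be assigned to either gene.

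Gstm5 of the mu class and Gstk1 of the kappa class had opposite calls in nickel and cadmium. Gstm5 had controls from 8.95 to 9.39, nickel arrays at 8.57, 8.71, 8.88 and 9.28, and cadmium arrays at 9.67, 9.71, 9.58 and 9.75. All cadmium arrays were above all controls, whereas nickel replicate 4 was within the control range. The changes were -0.33 (SE 0.11, adjusted p = 0.046) in nickel, 0.06 in chromium and 0.49 (SE 0.077, adjusted p = 0.00025) in cadmium, and nickel and cadmium differed by -0.82 (SE 0.10, adjusted p = 8.7e-08). The nickel call was lost without replicate 1, 2 or 3.

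Gstk1, the kappa enzyme of mitochondria and peroxisomes, was at 11.03, 11, 11.18 and 11.38 in cadmium and at 10.53, 10.40, 10.21 and 10.36 in chromium, with controls from 10.60 to 10.94. No array of either metal overlapped the controls. It rose by 0.40 (SE 0.071) in cadmium and fell by 0.37 (SE 0.069) in chromium and by 0.24 (SE 0.07) in nickel. The difference between chromium and cadmium was -0.77 (SE 0.072, adjusted p = 3.2e-10) and that between nickel and cadmium -0.64 (SE 0.072, adjusted p = 1.3e-08).

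Gstm4 rose in cadmium by 0.51, with values of 8.70, 8.61, 8.55 and 8.58 above controls that reached 8.35, and had -0.33 (adjusted p = 0.083) in nickel. Gstm2 fell in nickel by 0.38 and in chromium by 0.53. One probe set of Gstt2 (1368409_at) rose in nickel by 0.46 and in cadmium by 0.50, while the other (1396468_at) had 0.18 and 0.08 and was not called. Mgst3 fell in nickel by 0.50 and in chromium by 0.45, and Gstt1 fell in chromium by 0.35. The nickel calls of Gstk1, Gstm2 and Mgst3 were lost without replicate 1 or 2, and that of Gstt2 without 3 or 4. At 0.55 µM cadmium Gstm5 rose by 0.51, Gstt2 (1368409_at) by 0.49, Gstm4 by 0.43, Gstk1 by 0.41, Gstt1 by 0.40 and Mgst3 by 0.35. The other Gstt2 probe set (1396468_at) had 0.12 there (adjusted p = 0.35).

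The 6 mu-class genes with a promoter lie on chromosome 2, ordered Gstm5, Gstm7, Gstm3, Gstm2, Gstm1 and Gstm4, with starts 16.2 to 40.5 kb apart. Gstm6l had no promoter and was not placed. Only the outermost of these 6, Gstm5 and Gstm4, were called at 1.2 µM cadmium, and both rose. The promoter of Gstm5 is shown because it had 2 antioxidant response matches. Gstm4, which also rose, had no antioxidant response match, while Gstm7, which was not called, had this motif. A link between the motif and the rises was not tested.
Gstm5 (GRCr8, chr2:198219519-198219768, plus strand): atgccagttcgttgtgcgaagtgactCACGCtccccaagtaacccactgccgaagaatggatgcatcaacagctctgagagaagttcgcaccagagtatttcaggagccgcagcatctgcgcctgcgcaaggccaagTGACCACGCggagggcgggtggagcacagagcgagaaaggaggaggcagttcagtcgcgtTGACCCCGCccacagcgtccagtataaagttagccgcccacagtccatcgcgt
The capitals mark antioxidant response matches that begin 113 and 53 bases before the start, and xenobiotic response cores at 224 and 109 bases, of which the second lies inside an antioxidant response match.

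The UDP-glucuronosyltransferases of family 2, which conjugate steroids, bile acids and drugs, had different counts of calls in the metals. Such counts are not a test of a difference between metals. Of 9 probe sets, 2 fell and 0 rose in nickel, 1 fell and 1 rose in chromium, and 5 fell and 0 rose in cadmium. Among all probe sets 9.28%, 10% and 9.31% fell and 12.6%, 11.9% and 12.7% rose in these metals. Ugt2b7 had the largest rise of any member. Its controls were at 11.11, 11.03, 10.70 and 10.65 in replicates 1 and 2 and at 9.01, 9.02, 8.87 and 8.07 in replicates 3 and 4, so that their mean was 9.81 ± 1.19 (SD, n = 8). At 10 µM chromium it was at 11.95, 11.78, 11.22 and 11.30, above all controls, and the change was 1.75 (SE 0.21, adjusted p = 1.9e-05), a 3.37-fold rise. Against the controls of the same replicate the rise was 0.88, 1.10, 2.20 and 2.83, larger where the controls were lower. At 0.55 µM cadmium it rose by 0.95 (SE 0.24, adjusted p = 0.036). At 400 µM nickel and 1.2 µM cadmium its changes were 0.35 and 0.48, with adjusted p of 0.38 and 0.18.

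Falls of this family in cadmium were those of Ugt2b1, Ugt2b10, Ugt2b15, Ugt2b34l1 and Ugt2a1, of which the last was lost without replicate 1 or 2. Ugt2b1 was at 6.90, 6.45, 7.05 and 7.13 in cadmium, where its controls were at 8.92, 8.81, 8.19 and 8.23 in replicates 1 and 2 and from 7.39 to 7.42 in replicates 3 and 4. Every cadmium array was below every control, with a change of -1.09 (SE 0.23, adjusted p = 0.0026) that was larger in replicates 1 and 2 (-1.97 and -1.76) than in 3 and 4 (-0.35 and -0.27). Ugt2b10 was at 9.77, 9.77, 9.86 and 9.94 in cadmium, with controls from 10.19 to 11.09, and fell by 0.76. Ugt2b15 was at 8.08, 8.36, 8.35 and 8.38, with controls from 8.57 to 9.23, and fell by 0.73. In chromium Ugt2b10 and Ugt2b15 had changes of -0.00 and 0.15, neither called. Ugt2b1, Ugt2b15 and Ugt2a1, called in cadmium only, were also low in nickel replicates 1 and 2. Against their own controls they were at -1.39 and -0.77, -1.17 and -0.73, and -1.05 and -0.67. In nickel replicates 3 and 4 all were above 0, and none was called.

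Of the members with a promoter, Sult1e1, Sult1d1, Sult1b1, Ugt2b, Ugt2b15, Ugt2b35, Ugt2b7, Ugt2b1, Ugt2b10 and Ugt2b34l1 form a row on chromosome 14 in this order. Their starts are 19.6 to 214 kb apart. Members without a promoter, Ugt2a1 among them, were not placed, and other genes may lie between. In chromium, Ugt2b7 rose while Ugt2b34l1 and Sult1b1 at other places in the row fell. The start of Ugt2b1, which fell in cadmium, is 127 kb from that of Ugt2b7. The probe sets for Ugt1 genes each name 8 genes. One of these (1387759_s_at) fell in chromium by 0.23 and the other was not called in any metal. UGT2 genes are close in sequence, and probe sets of 1 may detect another, which was not tested.

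**Figure D3:**
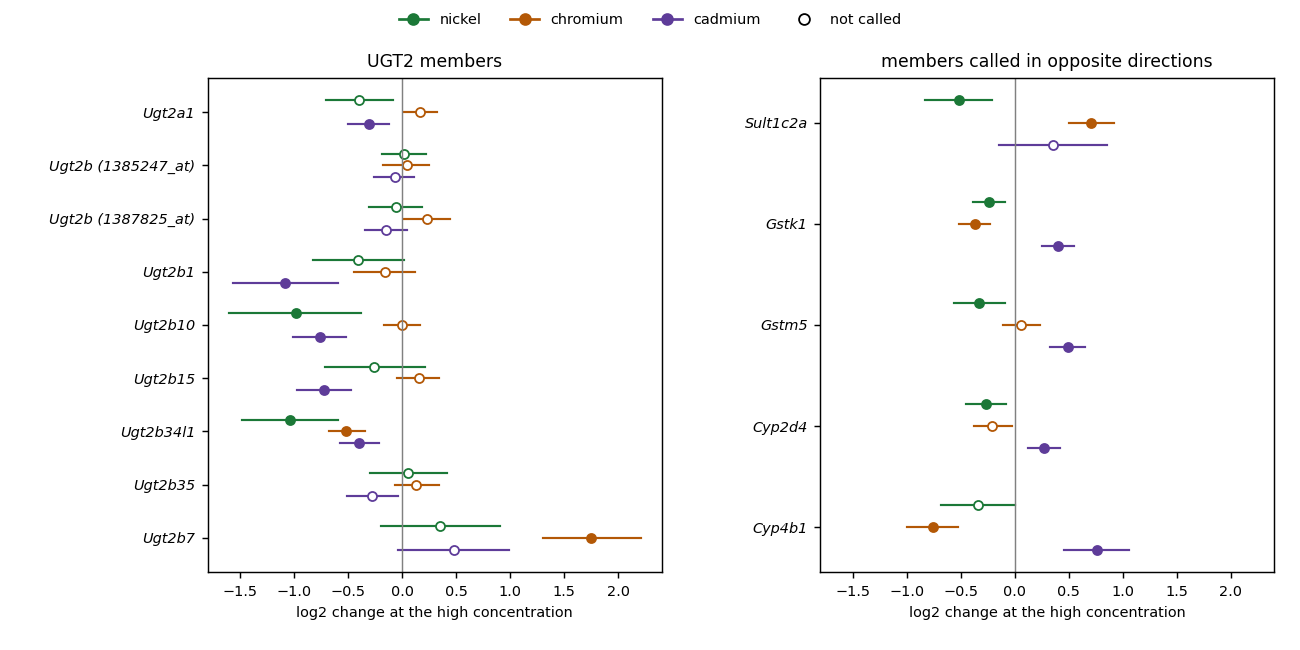
Log2 change at the high concentration with its 95% interval (x axis) for the 9 UGT2 probe sets and for the members called in opposite directions by a pair of metals; filled points passed the test, open points did not. Ugt2b7 in chromium is the only filled point above 0 among UGT2 probe sets, and Gstk1 and Cyp4b1 in cadmium lie opposite to chromium.

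Beside Sult1a1 and Sult1b1, few of the 15 sulfotransferase probe sets moved. Sult6b2 was the one member with higher calls in each metal, at low intensity. Controls were from 4.50 to 5.19, and arrays were at 5.84, 5.35, 4.82 and 4.67 in nickel, at 5.30, 5.42, 5.34 and 5.21 in chromium and at 5.73, 5.59, 6.02 and 5.68 in cadmium. Chromium and cadmium arrays were all above all controls, while nickel replicates 3 and 4 were within them. The changes were 0.40 (SE 0.12, adjusted p = 0.029), 0.55 (SE 0.09, adjusted p = 0.00025) and 0.99 (SE 0.13, adjusted p = 4.8e-05). The nickel call was lost without replicate 1, 2 or 3.

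Sult1c2a had opposite calls in nickel and chromium. Controls were from 6.87 to 7.15 in replicates 1 and 2 and from 5.67 to 6.14 in replicates 3 and 4. Nickel arrays were at 6.16, 5.98, 5.58 and 5.78 and chromium arrays at 7.86, 7.89, 6.38 and 6.30. In each replicate chromium was above its controls, whereas the nickel array of replicate 4 lay between its controls. The changes were -0.52 (SE 0.15, adjusted p = 0.017) and 0.71 (SE 0.10, adjusted p = 7.8e-05), and their difference was -1.23 (SE 0.20, adjusted p = 1.1e-05). Sult2a2, a sulfotransferase of hydroxysteroids and bile acids, rose in nickel by 0.30, with all values under 4.5. Sult1c2 was at 7.12, 7.22, 7.0 and 6.97 in the controls of replicates 1 and 2 and from 4.75 to 4.99 in those of 3 and 4. Cadmium arrays were at 5.79 and 5.33 in the former replicates and at 4.89 and 4.85 in the latter, so the change of -0.76 (SE 0.33, adjusted p = 0.11) was not called.

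The nickel falls were unequal between replicates. Set against the controls of its own replicate, the median member at 400 µM was at -0.29, -0.25, -0.08 and -0.03 in replicates 1 to 4, and among the 46 bright members at -0.77, -0.53, 0.03 and 0.08. Decreases of at least 1 log2 unit were seen in 21, 8, 0 and 0 members, against 687, 294, 36 and 100 of all probe sets (2.21%, 0.947%, 0.116% and 0.322%). Gstz1, for example, changed by -1.60, -1.36, -0.17 and 0.01, Cyp2b3 by -1.93, -1.56, -0.31 and -0.02 and Ugt2b10 by -2.40, -1.49, -0.08 and -0.00. Cyp4a1 and Cyp4a3 did not share this pattern, with -0.28, -0.79, -0.76 and -0.85 and with -0.43, -0.51, -0.64 and -0.53. The nickel array of replicate 4 is one of the repeated arrays.

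Over replicates 1 and 2 alone, a choice made after the values were seen, 42 members fell and 1 rose in nickel, against 10.9% and 12.5% of all probe sets. Over replicates 3 and 4 alone, 6 fell and 7 rose, against 2.53% and 4.91%. The count of 25 called members was 15 without replicate 1 and 9 without replicate 2, and 41 without the repeated arrays. Shares of all probe sets are not given beside these 3 counts, so their shifts are no result about the members in particular. Calls that were kept whichever replicate was left out are those of Sult1a1, Ugt2b34l1, Sult1b1, Cyp4a1, Cyp2c6v1, Cyp4a3, Cyp4a8 (1368607_at) and Cyp1a2. The transcript of Hnf4a, a nuclear receptor that controls many liver genes, was at 8.84, 9.67, 10.61 and 10.50 on the nickel arrays (1392969_at), with controls from 10.49 to 10.70, and so was low in the same replicates. Its part in the result was not tested. In chromium the replicate medians were -0.10, -0.08, -0.07 and -0.06, and in cadmium -0.11, -0.12, -0.01 and -0.00.

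**Figure D4:**
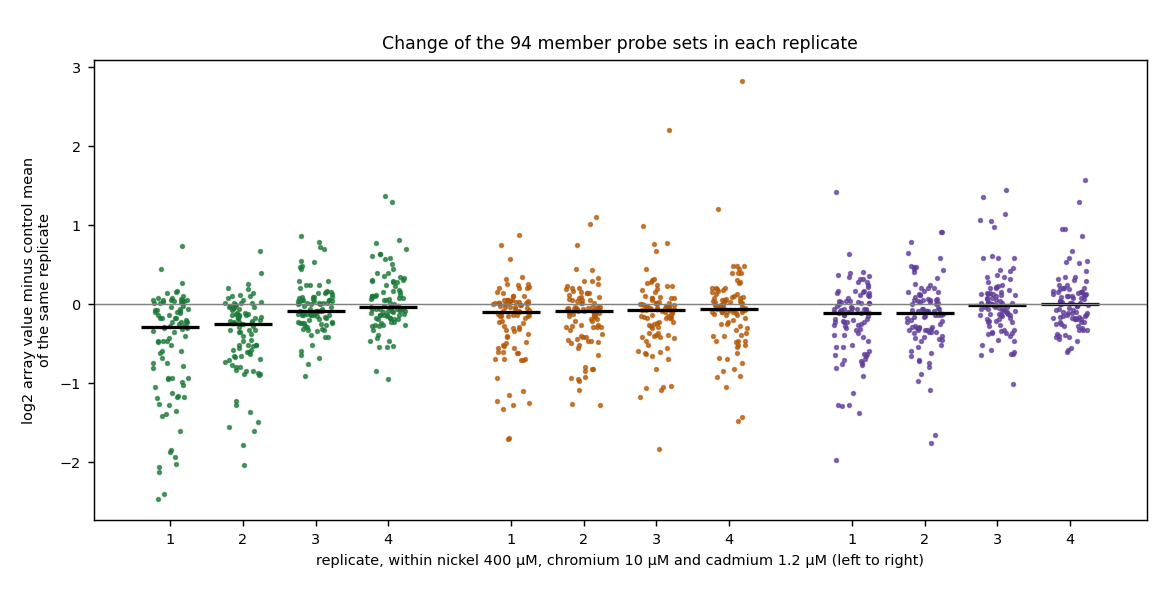
Log2 intensity at the high concentration minus the control mean of the same replicate (y axis) for each of the 94 member probe sets (points), by replicate 1 to 4 within each metal (x axis); bars are medians. Nickel replicates 1 and 2 reach far below 0, with medians of -0.29 and -0.25, and replicates 3 and 4 do not.

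Differences between metals at the high concentration were tested directly, since all share the controls. Between nickel and chromium 21 members differed, 8 higher and 13 lower in nickel, against 12.5% and 12.3% of all probe sets, whereas 12 differed without replicate 2 and 13 without replicate 3. Between nickel and cadmium 28 differed, 6 higher and 22 lower in nickel, against 11.8% and 13.2%. Between chromium and cadmium 34 differed, 11 higher and 23 lower in chromium, against 12% and 13.1%. In the last comparison 7 of the 9 UGT2 probe sets were higher in chromium, among them Ugt2b7 by 1.28, Ugt2b1 by 0.93, Ugt2b15 by 0.87 and Ugt2b10 by 0.76. Lower in chromium were Cyp4b1, Sult1a1, Cyp3a18 (by -1.26) and Cyp4f17 (by -1.20). One probe set of Cyp2d4 (1370329_at) fell in nickel by 0.27 and rose in cadmium by 0.27, and differed by -0.54 (SE 0.079, adjusted p = 2.0e-06), while the other (1387913_at) fell in nickel by 0.42 and had 0.09 in cadmium. The cadmium call of the former was lost without replicate 3 or 4.

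Genes that supply or steer these enzymes were counted from 5 lists. The shares of all probe sets to set beside these counts are those given above for the high concentrations, from 9.28% to 10% lower and from 11.9% to 12.7% higher, and the lists were not tested as such. Of 18 probe sets for electron partners and heme synthesis, 9 fell and 3 rose in nickel (50% and 16.7%), 5 and 4 in chromium (27.8% and 22.2%), and 2 and 4 in cadmium (11.1% and 22.2%). Alas1, the first enzyme of heme synthesis, rose in the metals by 0.43, 0.53 and 0.65, while cytochrome b5 (Cyb5a) fell by 0.65 in chromium and 0.71 in cadmium, and Cpox and Alad, later enzymes of heme synthesis, fell by 0.58 and 0.56 in nickel. Among 13 probe sets for cosubstrate supply, 3 fell and 5 rose in nickel (23.1% and 38.5%), 6 and 4 in chromium (46.2% and 30.8%), and 1 and 1 in cadmium (7.69% each). The subunits of glutamate-cysteine ligase, which makes glutathione, rose in nickel (Gclm by 1.03 and Gclc by 0.94), and the 2 called probe sets of Papss2, which makes the sulfate donor, fell in chromium by 0.83 and 0.75.

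Of 29 probe sets for transporters, 10 fell and 3 rose in nickel (34.5% and 10.3%), 10 and 1 in chromium (34.5% and 3.45%), and 8 and 6 in cadmium (27.6% and 20.7%). The efflux pump Abcc2 rose by 0.99 in chromium and by 0.99 in cadmium, Abcc1 by 0.93 in nickel and Abcb1a in cadmium by 1.02 and 0.81 for its probe sets. The uptake carrier Slco1a4 fell by 0.85 in nickel and 0.82 in cadmium. Of 38 probe sets for other enzymes of xenobiotic metabolism, 7 fell and 4 rose in nickel (18.4% and 10.5%), 8 and 8 in chromium (21.1% each), and 3 and 17 in cadmium (7.89% and 44.7%). The rises included the dehydrogenase Aldh3a1 (1.64) and the reductase Akr1b8 (1.26) in nickel, Akr1b8 (1.42) and the quinone reductase Nqo1 (0.93) in chromium, and the carboxylesterase Ces2c (1.61) and the monooxygenase Fmo5 (1.35) in cadmium. At 0.55 µM cadmium 9 of these 38 rose (23.7%) and 0 fell, against the 3.35% and 1.62% above.

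Of 42 probe sets for receptors and regulators, 12 fell and 8 rose in nickel (28.6% and 19%), 14 and 5 in chromium (33.3% and 11.9%), and 6 and 6 in cadmium (14.3% each). The small Maf protein Maff rose by 1.69, 1.31 and 1.00 in nickel, chromium and cadmium. Bile acid receptor Nr1h4 and its target Nr0b2 fell by 0.78 and 0.74 in nickel. The liver-enriched factors Onecut1 (by 0.95) and Prox1 (by 0.78) fell in chromium, and Prox1 (by 0.52) and Onecut1 (by 0.49) in cadmium. The 3 probe sets of Hnf4a changed by -0.70, -0.67 and -0.65 in nickel and by -0.59, -0.76 and -0.74 in chromium, and 1 of them, by -0.30, in cadmium.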

How the data were processed

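RNA of H4-II-E-C3 cells was hybridised to 44 whole-genome rat arrays (Affymetrix) of 31099 probe sets. The authors made the deposited log2 intensities by RMA in Partek, over all arrays together, as far as the labels and methods say, so values of 1 array depend on the others and low intensities are compressed. Gene names are those of the platform annotation, and 93 of the 94 members match a RefSeq symbol. The members and lists were chosen with earlier results of these data known.

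Each metal was fitted with limma 3.58.1 in R 4.3.3 on all 31042 probe sets that are not array controls, without a filter. Terms were concentration and replicate number, and the 2 control arrays of a replicate were averaged (16 fitted values, 9 residual degrees of freedom). The batch term of the methods was for experimental and processing dates, which the labels do not give. Replicate number may differ from that batch, in particular for the 4 repeated arrays. Differences between metals came from 1 fit over all conditions (27 residual degrees of freedom). P-values were adjusted by Benjamini-Hochberg over all probe sets. Conditions followed the title order, as stated in the report. Members named are the 12 largest called rises and falls at each high concentration, with some standard markers whatever their values, and for lists the 2 largest called rises and falls. Members singled out beyond these, such as those at the middle concentration, in Cyp4f and in the mu class, were chosen after values were seen. On simulated data for nickel at the high concentration against controls (31042 probe sets, 200 changed) the fit recovered 97% of 2-fold and 75% of 1.4-fold changes, and 6 of 178 calls were false. The simulated arrays were drawn independently, without replicate effects, and a changed probe set was shifted equally on all nickel arrays. The real nickel changes were unequal between replicates, so these rates cannot be carried over to them. Alternatives were other normalizations, filters, controls, fits without the block, leaving out each replicate, and the labels as deposited. Arrays have no read depth, and their number limits the precision.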

Additional observations from a re-analysis of the deposited data

Results flagged for a closer look

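Of 99 changes of named members, each set against the controls of its own replicate, 2 had a replicate far from the other 3, where chance would give about 1 in 20. Gstt2 (1368409_at) in cadmium replicate 2 was at 0.79, with the others at 0.36, 0.43 and 0.42. Cyp4a1 in nickel replicate 1 was at -0.28, with the others at -0.79, -0.76 and -0.85.

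Changes that differed between metals by a test of the difference itself were counted in 21 members (22.3%) for nickel and chromium, 28 (29.8%) for nickel and cadmium and 34 (36.2%) for chromium and cadmium, where 24.8%, 25% and 25.2% of all probe sets differed. With calls of opposite sign in both metals these were Sult1c2a (-1.23, nickel minus chromium), Gstk1 (-0.64), Gstm5 (-0.82) and Cyp2d4 (1370329_at, -0.54) for nickel minus cadmium, and Gstk1 (-0.77) and Cyp4b1 (-1.53) for chromium minus cadmium.

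Probe sets that name several genes of these families were outside the counts. In nickel the called ones were Cyp2b2;Cyp2b1 (-0.30), Cyp2d5;Cyp2d1 (-0.54), Cyp4a3;Cyp4a2 (-1.10) and Gsta5;Gsta2 (1.11). In chromium they were Cyp2a2;Cyp2a1 (-0.43), Cyp2b2;Cyp2b1 (-0.55), Cyp2d5;Cyp2d1 (-0.76), Cyp4a3;Cyp4a2 (-0.58), Gsta5;Gsta2 (0.87) and a probe set that names 8 Ugt1a genes (-0.23). In cadmium they were Cyp2a2;Cyp2a1 (-0.59) and Gsta5;Gsta2 (0.57).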

How the results depend on the processing

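Over 19 alternatives, 1795 changes of named members were recomputed, of which 1608 kept their direction and their side of the threshold, 140 lost and 43 gained a call, and 4 reversed. The 4, all with the labels as deposited, were Cyp2d2 (0.11), Cyp4b1 (-0.03) and Cyp2b3 (0.05) in cadmium and Cyp3a18 (0.05) in chromium. With those labels 0 members were called at the high concentrations of nickel, chromium and cadmium, 0 at the low and middle concentrations of cadmium, 0 under the strict rule in chromium and cadmium, and 2, 0 and 0 between nickel and chromium, nickel and cadmium, and chromium and cadmium. Without the replicate block the counts were 14 in nickel and 16 in cadmium at the high, 4 at the middle and 0 at the low concentration of cadmium, 11 between nickel and chromium, and 3 and 2 under the strict rule in chromium and cadmium. Deviations of arrays with the same replicate number had a median correlation of 0.495 (-0.3 to 0.803), and 40 of 44 arrays correlated best with their own number, so the pairing is a hint from the data. The exceptions included the arrays of replicates 2 and 4 at 0.55 µM cadmium. Counts with 1 replicate left out ranged from 9 to 36 in nickel, 25 to 34 in chromium and 22 to 27 in cadmium at the high concentration, from 1 to 10 and from 0 to 1 at the middle and low concentrations of cadmium, from 4 to 9 and from 1 to 2 under the strict rule in chromium and cadmium, and from 12 to 18, 22 to 33 and 25 to 32 for the differences in the order above. With labelled replicates 1 and 2 alone, nickel had 43 calls, nickel and chromium differed in 32, and strict counts were 7 and 3 for these metals. Over replicates 1 and 2 of the title order, added after the data were seen, they were 43 in nickel, 2 and 0 at the middle and low concentrations of cadmium, and 7, 3 and 1 under the strict rule. Over replicates 3 and 4, also added, they were 13 in nickel, 21 in chromium, 3 at the low concentration of cadmium and 1 under the strict rule in chromium. With 8 separate controls they were 38 and 2 in nickel at the high and middle concentrations, 23 and 4 in cadmium at the middle and low, and 3 in nickel under the strict rule. Without repeated arrays they were 41 in nickel and 3 at the low concentration of cadmium. In 1 fit over all arrays they were 1 at the middle concentration of nickel, 0 at the low concentration of cadmium and 4 under the strict rule in nickel. With Control 1 arrays alone they were 1 at the middle concentration of nickel and 0 at the low one of cadmium, with Control 2 alone and with centred arrays 0 at the latter, and with either filter on dim probe sets 1 at the former and 2 under the strict rule in cadmium. Repeating the quantile normalization and a trended, robust fit moved no count by over 1.5 times. Shares of all probe sets called under these alternatives are not set beside the counts in this section. A shift in a count is therefore no result about the members in particular. The cause of these shifts was not tested.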
